A study of Mus musculus with 16 samples.

Results

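The marrow stromal niche genes are 10 genes that stromal cells of bone marrow use to hold and feed blood cell precursors, or that mark those stromal cells. They were chosen by symbol (Cxcl12, Kitl, Ebf3, Foxc1, Vcam1, Il7, Angpt1, Pdgfra, Pdgfrb and Apod). All 10 had a row among the 36829 features listed for each mouse, and all 10 passed the filter on low values that left 16973 features. The rule uses no measured value, although the genes were chosen with earlier results of these data known. The samples were femoral cortical bone from female C57Bl/6 mice (C57Bl/6J in the study's methods) aged 11 weeks. In 8 mice the hind limbs had been kept off the floor for 7 days by a harness taped to the tail while they were anaesthetised with isoflurane (hindlimb unloading, HLU), and 8 weightbearing mice served as controls. No altered allele was named for either group, and no anaesthesia for the controls. The bone ends had been cut off and the marrow flushed out before RNA was taken, which limits these samples as a view of marrow stroma. In a bulk sample of this kind, fewer stromal cells and less RNA per stromal cell cannot be told apart.

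In marrow, perivascular reticular cells secrete CXCL12, which keeps CXCR4-bearing stem cells and B-cell precursors in place, and stem cell factor (the product of Kitl), which signals through KIT. The transcription factors EBF3 and FOXC1 maintain these cells, and EBF3 holds them back from the bone-forming fate. VCAM-1 tethers blood cells through the α4 integrin (Itga4), IL-7 drives early B lymphopoiesis, and angiopoietin-1 acts on the receptor TIE2 (Tek). The receptors PDGFRα and PDGFRβ mark mesenchymal progenitors and pericytes. Apolipoprotein D, a secreted lipid carrier, is expressed by fibroblasts and stromal cells of many tissues.

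The upstream promoter sequences of Cxcl12 and Ebf3 are shown because these genes covaried most closely among the 10, and that of Apod because it varied against Vcam1 and Ebf3. Each is the stretch of 250 bases ending at the base before the annotated start, from the RefSeq promoter table (GRCm38.p6). Sequences of 6 of the 10 genes were taken from it. Capitals mark matches to the GC box GGGCGG or the TATA box TATAAA on either strand, and neighbouring matches may share bases. Cxcl12 lies at chr6:117168285-117168534 (plus strand), Ebf3 at chr7:137314446-137314695 (minus strand) and Apod at chr16:31314809-31315058 (minus strand).
Cxcl12: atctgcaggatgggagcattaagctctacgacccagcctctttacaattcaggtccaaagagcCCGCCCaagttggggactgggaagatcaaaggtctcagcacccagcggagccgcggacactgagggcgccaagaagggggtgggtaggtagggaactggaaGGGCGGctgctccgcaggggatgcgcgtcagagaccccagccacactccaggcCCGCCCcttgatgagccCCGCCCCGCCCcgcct
Ebf3: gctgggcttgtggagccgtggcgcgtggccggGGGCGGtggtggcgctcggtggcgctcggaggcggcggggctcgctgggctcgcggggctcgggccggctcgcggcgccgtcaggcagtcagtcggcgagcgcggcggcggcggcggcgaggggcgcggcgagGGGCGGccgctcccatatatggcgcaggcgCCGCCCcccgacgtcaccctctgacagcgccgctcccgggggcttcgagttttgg
Apod: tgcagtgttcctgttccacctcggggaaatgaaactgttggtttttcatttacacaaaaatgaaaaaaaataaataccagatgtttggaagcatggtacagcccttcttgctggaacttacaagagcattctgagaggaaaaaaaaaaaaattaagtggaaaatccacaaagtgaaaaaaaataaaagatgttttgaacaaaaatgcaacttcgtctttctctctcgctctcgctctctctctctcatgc
The Cxcl12 stretch held 5 GC boxes and those of Ebf3 and Kitl held 3 each, where 32.7% of the 32851 promoters in the table held at least 1. The Foxc1 stretch held 1 and that of Pdgfra held 0. The Apod stretch held none of the motifs searched. Its GC content was 36.4%, against 64.4% for Cxcl12, 80.0% for Ebf3 and a median of 52.4% for all promoters. The forkhead motif TGTTTAC (3.17% of all promoters, either strand) was found in none of the 6 stretches, and the TATA box (12.4%) only in that of Kitl. These are matches of letters and not measured binding sites.

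Transcript abundance was given as RPKM, reads per kilobase of gene scaled to the depth of the library. Comparison between genes depends on the gene lengths used. The lengths recovered from the values differed from annotated exon lengths (GENCODE M21) in both directions. They were 12950 against 8176 bases for Cxcl12, 5071 against 8870 for Vcam1 and 4376 against 2577 for Apod. The order of genes and the folds between them therefore hold for the deposited values only. The library totals behind these values, recovered from their steps, ran from 7067512 to 21363584 reads, and the smallest libraries were control 2 and HLU 5. Reads on Cxcl12 numbered 14210 to 36486 per mouse, but reads on Il7 only 30 to 247. Osteocyte, osteoblast, endothelial and blood cell markers were all present, among them Dmp1 (mean 112 RPKM in control mice) and Col1a1 (mean 304 RPKM in control mice). The summed level of 9 granulocyte markers was 18084 to 38633 RPKM in control mice and 12847 to 45662 RPKM in HLU mice. The libraries also differed in the levels of GC-rich genes relative to GC-poor genes. For each library the median log2 deviation of the 20% of genes poorest in GC was subtracted from that of the 20% richest in GC, and this library GC difference ran from -0.90 to 0.74 in control and from -1.07 to 0.49 in HLU mice. It did not separate the groups (mean difference 0.009, exact permutation p = 0.978), and its source was not tested.

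Cxcl12 had the highest RPKM of the 10 transcripts in every mouse. Its level in control mice ran from 69.3 RPKM through a median of 134 RPKM to 160 RPKM, and in HLU mice from 81.4 RPKM through 132 RPKM to 183 RPKM. The lowest control value was in control 6 and the lowest HLU value in HLU 7, and the groups overlapped over most of their ranges. Vcam1 followed. It ran from 49.0 RPKM (median 84.1 RPKM) to 133 RPKM in control mice and from 36.5 RPKM (median 76.4 RPKM) to 103 RPKM in HLU mice. Cxcl12 exceeded Vcam1 1.66-fold (geometric mean ratio), in 16 of 16 mice, and Vcam1 exceeded the next gene, Apod, 5.74-fold, in 16 of 16 mice. In both cases the exact sign-flip p was 3.05e-05, the smallest possible.

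**Figure D1:**
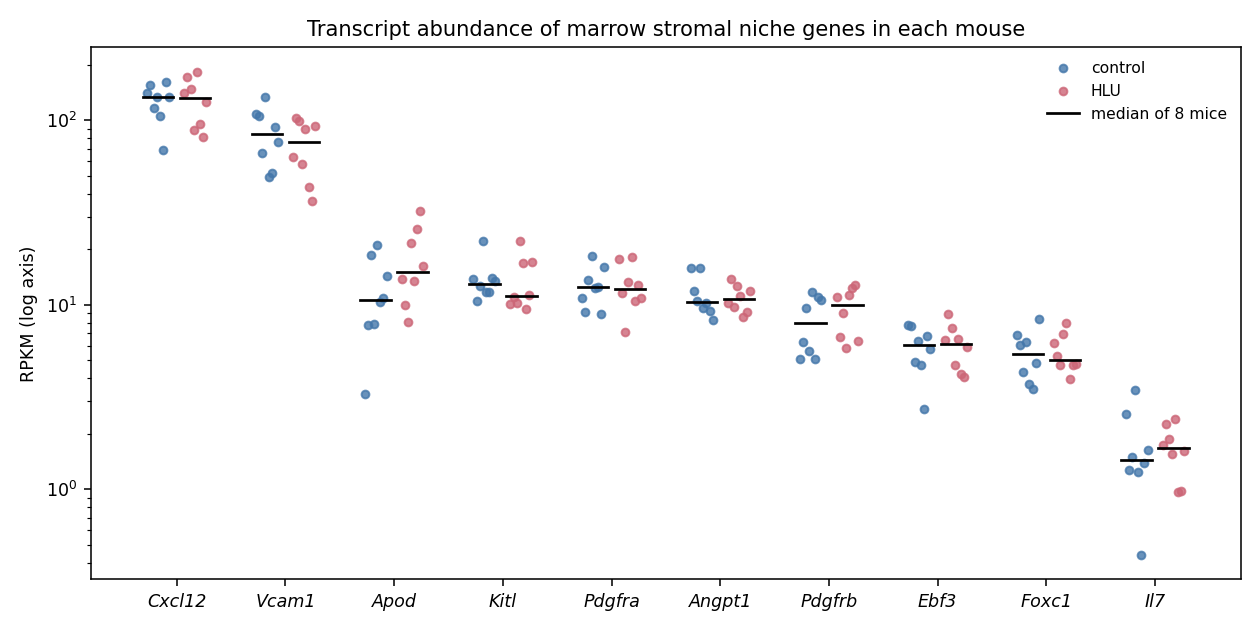
Transcript abundance of the 10 marrow stromal niche genes in each of 16 mice, as RPKM on a log axis, with genes ordered by mean level, control mice in blue, HLU mice in red and a bar at the median of the 8 mice of each group. The control and HLU mice overlapped for every gene, and Apod ran from 3.30 RPKM in control 1 to 32.3 RPKM in HLU 7.

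A middle tier held Apod, Kitl, Pdgfra, Angpt1 and Pdgfrb, whose means over all mice were 14.7, 13.6, 12.7, 11.2 and 8.77 RPKM. Neighbours in this order did not differ beyond their spread, with exact sign-flip p-values of 0.883 for Apod against Kitl, 0.362 for Kitl against Pdgfra, 0.144 for Pdgfra against Angpt1 and 0.0516 for Angpt1 against Pdgfrb. Pdgfrb exceeded Ebf3 1.45-fold (exact sign-flip p = 0.00793). The transcription factors Ebf3 (mean 5.93 RPKM) and Foxc1 (mean 5.53 RPKM) did not differ beyond their spread (exact sign-flip p = 0.37). Il7 was lowest, with a mean of 1.68 RPKM, and Foxc1 exceeded it in 16 of 16 mice.

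Apod differed most between mice. Its within-group SD was 0.76 on the log2 scale, larger than that of 92.7% of the 4491 features whose mean level lay within 2-fold of its own. In control mice Apod ran from 3.30 RPKM through 10.6 RPKM to 21.04 RPKM, and in HLU mice from 8.06 RPKM through 15.0 RPKM to 32.3 RPKM. Control 1 had the lowest value, HLU 7 and HLU 6 the highest, and the groups overlapped. Angpt1 differed least, with a within-group SD of 0.30, below the median of 0.35 of features at its level. The Il7 SD was 0.65, and control 6, with 0.44 RPKM, lay below every other mouse. Kitl stood at 22.2 RPKM in both control 4 and HLU 4, above all other mice.

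The comparison of HLU with control mice asks whether a week without weightbearing changed these transcripts. None of the 10 genes rose and none fell, at an unadjusted p under 0.05 with a change of at least 1.2-fold (limma and limma voom). Among all features tested by that rule, 1.11% were higher and 4.76% lower in HLU mice. The median log2 fold change of the 10 genes was 0.03, and that of all features was -0.10. No feature of the 16973 kept passed an adjusted p of 0.1 by limma, nor by limma voom on the recovered reads, although 1 of 29628 did with no filter on low values (lower in HLU mice), 1 did when HLU 2 was left out, and 1049 had an unadjusted p under 0.05 at any fold. Removing the general shift by median-of-ratios rescaling left all 10 genes without a call, and changed the higher and lower calls over all features from 188 and 808 to 381 and 395.

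None of the secreted factors passed the test. Errors of group means below are SDs over 8 mice. For Cxcl12 the control mean was 127 ± 29.5 RPKM and the unloaded mean 129 ± 38.3 RPKM, which gave a log2 fold change of 0.01 ± 0.20 SE (95% interval -0.42 to 0.43; limma adjusted p = 0.993). Kitl averaged 13.8 ± 3.62 and 13.5 ± 4.60 RPKM (log2 fold change -0.05, 95% interval -0.45 to 0.35). Il7 averaged 1.69 ± 0.92 and 1.68 ± 0.52 RPKM (log2 fold change 0.11, 95% interval -0.55 to 0.76). Angpt1 averaged 11.4 ± 2.91 and 10.9 ± 1.79 RPKM (log2 fold change -0.04, 95% interval -0.36 to 0.27). The direction of these 4, and of Ebf3, Foxc1 and Pdgfra, turned under at least 1 alternative setting.

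Neither transcription factor passed. Ebf3 averaged 5.83 ± 1.70 RPKM in control and 6.02 ± 1.68 RPKM in HLU mice (log2 fold change 0.06, 95% interval -0.39 to 0.51). Foxc1 averaged 5.48 ± 1.68 and 5.57 ± 1.34 RPKM (log2 fold change 0.05, 95% interval -0.35 to 0.44). The adhesion molecule Vcam1 averaged 85.2 ± 29.4 and 73.1 ± 25.9 RPKM (log2 fold change -0.23 ± 0.26 SE; limma, adjusted p = 0.813). The intervals for these genes include changes of 1.2-fold in either direction, so such changes were not detectable with these mice.

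Of the receptors, Pdgfra averaged 12.7 ± 3.24 RPKM in control and 12.7 ± 3.69 RPKM in HLU mice (log2 fold change -0.02, 95% interval -0.42 to 0.39). Pdgfrb averaged 8.12 ± 2.88 and 9.43 ± 2.83 RPKM (log2 fold change 0.23 ± 0.23 SE; limma, adjusted p = 0.795). Apod had the largest difference, 11.8 ± 5.92 against 17.7 ± 8.30 RPKM, a log2 fold change of 0.63 with a standard error of 0.35 (95% interval -0.11 to 1.37; limma unadjusted p = 0.0901, adjusted p = 0.744; exact permutation p = 0.119). It passed the unadjusted rule when control 5 was left out (0.78, limma unadjusted p = 0.0396), when HLU 3 was left out (0.77, limma unadjusted p = 0.0420) and when granulocyte and erythroid levels were covariates (1.01, limma unadjusted p = 0.00208, adjusted p = 0.491). Without control 1, which had the least Apod, it was 0.40. In the 4 control and 4 HLU mice with a library GC difference below 0 the Apod difference was 1.11 (exact permutation p = 0.0571), and in the 4 and 4 above 0 it was 0.15 (exact permutation p = 0.8), where 0.0286 was the smallest p possible. Among these, Kitl was lower in HLU mice in the libraries above 0 (log2 difference -0.33, exact permutation p = 0.0286, not adjusted over the 20 tests made) and not in those below 0 (0.22, exact permutation p = 0.514); the difference between these values was not tested.

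**Figure D2:**
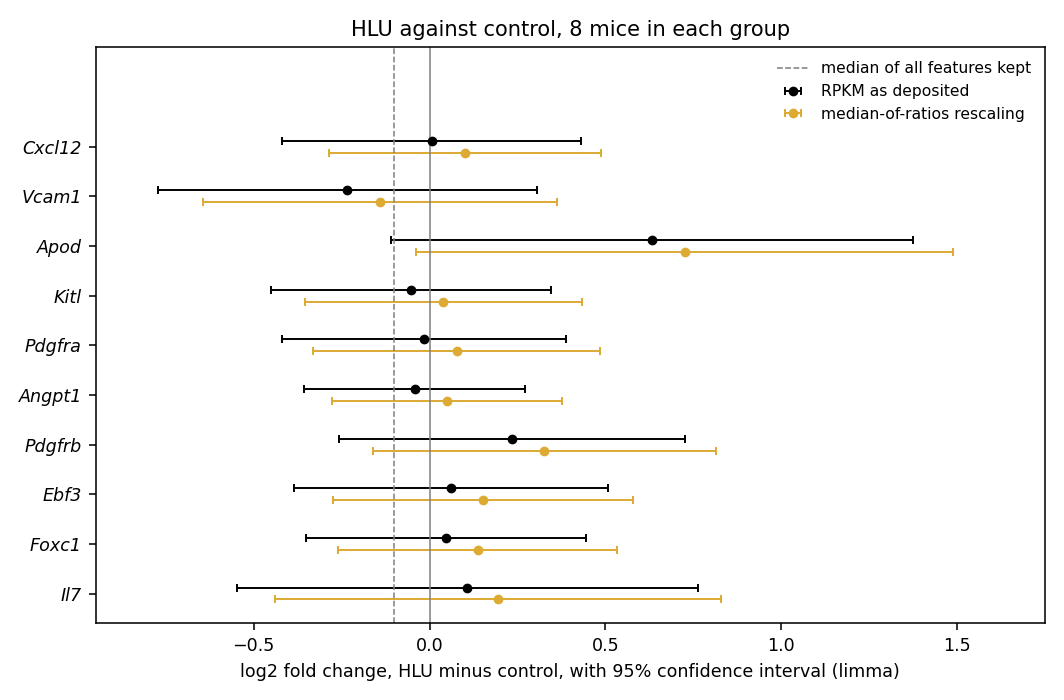
Log2 fold change of each niche gene, HLU minus control, with its 95% confidence interval from limma (8 mice in each group), on RPKM as deposited (black) and after median-of-ratios rescaling (yellow), with the dashed line at the median of all features kept. Every interval spans 0, and that of Apod runs from -0.11 to 1.37 on RPKM as deposited.

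Of 68 further genes in 4 lists (receptors and ligands of the niche, other niche factors, mesenchymal progenitor markers, and pericyte and smooth muscle markers), 62 were tested, 2 rose and 0 fell by the unadjusted rule, beside the 1.11% higher and 4.76% lower of all features. Both risers were among the 22 other niche factors tested. Igfbp5, which encodes a binding protein for insulin-like growth factors, rose from a mean of 66.1 to 88.2 RPKM (log2 fold change 0.42, standard error 0.12; exact permutation p = 0.00171, limma adjusted p = 0.744). Cxcl14, a chemokine, rose from 26.7 to 34.1 RPKM (log2 fold change 0.37, standard error 0.15; exact permutation p = 0.028, limma adjusted p = 0.744). Lepr and Adipoq, used to mark the reticular cells that make CXCL12, averaged 13.7 and 54.0 RPKM in control and 13.3 and 54.1 RPKM in HLU mice. The symbol Ebf1 named 2 features, so its level is uncertain. The receptor Cxcr4 averaged 67.5 ± 9.36 and 59.0 ± 25.2 RPKM, and Il7r 9.67 ± 5.57 and 6.06 ± 2.79 RPKM, and neither passed the test.

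Lists of other cell types give the surroundings of these transcripts, and their counts stand beside the same 1.11% higher and 4.76% lower of all features. In the erythroid list 4 of 12 genes fell (Hbb-b1, Rhag, Klf1 and Rhd, with log2 fold changes of -0.77, -0.60, -0.69 and -0.69), and the list's mean log2 level was 0.54 lower in HLU mice (difference -0.54, exact permutation p = 0.0552). Its summed level was 2617 to 5929 RPKM in control and 1249 to 3467 RPKM in HLU mice. In the B-lineage list 1 of 11 genes fell (Vpreb3, -0.81), in the osteoclast list 1 of 9 fell (Itgb3, -0.46), in the osteocyte list 1 of 10 rose (Mepe, 0.79) and in the adipocyte list 1 of 8 rose (Fabp4, 0.34). No gene of the osteoblast, endothelial or granulocyte lists passed. As a description with no test, log2 fold changes were negative for 12 of 12 erythroid and 11 of 11 B-lineage genes, and positive for 10 of 10 osteocyte and 8 of 8 adipocyte genes. Muscle markers were not analysed here.

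Between the groups no niche gene passed, but single mice differed widely. The ratio of highest to lowest value was 1.92-fold to 9.78-fold over the 10 genes, and the next comparison asks which of them varied together. Group means were removed from log2(RPKM + 0.1), and Pearson and Spearman correlations were computed over the 16 mice for all 45 pairs, with permutation of mice within groups and Benjamini-Hochberg adjustment. Of the 45 pairs 12 passed an adjusted p of 0.05, 8 of them positive and 4 negative.

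Cxcl12, Ebf3, Vcam1 and Il7 formed a set in which all pairs were positive and passed. Cxcl12 and Ebf3 were closest, with r = 0.925 (permutation p = 1e-05, the smallest 100000 permutations can give; adjusted p = 2.25e-04) and rho = 0.893 (permutation p = 3e-05). The r was 0.962 in control mice alone, 0.911 in HLU mice alone and 0.860 without the 2 mice farthest from the median Cxcl12 level. Among the 16972 other features kept, Ebf3 ranked 1 in its correlation with Cxcl12, and 1.76% of those features reached r = 0.7. The ratio of Cxcl12 to Ebf3 stayed between 18.0 in control 1 and 28.0 in HLU 5, a 1.56-fold range, while Ebf3 itself ranged 3.24-fold.

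Ebf3 and Vcam1 followed (r = 0.845, adjusted permutation p = 2.25e-04; rho = 0.881, permutation p = 7e-05), then Cxcl12 and Vcam1 (r = 0.812, adjusted permutation p = 0.00281; rho = 0.714, permutation p = 0.00464). Il7 correlated with Vcam1 (r = 0.770), Ebf3 (r = 0.792) and Cxcl12 (r = 0.738), with adjusted permutation p-values of 0.0027, 0.00611 and 0.00973. The relations with Vcam1 were not particular to these genes. Of the 16972 other features kept, 12.6% reached r = 0.7 with Vcam1. Among them Ebf3 ranked 275, Cxcl12 590 and Il7 1189 in their correlation with Vcam1. The relations of Il7 with Cxcl12 and Ebf3 rested in part on control 6, which had the least of all 3 transcripts. Without it r was 0.582 for Cxcl12 and 0.631 for Ebf3, and neither pair passed. For each pair r was also computed without the 2 mice farthest from the median of the partner of Il7. It was 0.484 with Cxcl12, 0.556 with Ebf3 and 0.787 with Vcam1. The mice left out were set by each partner and need not be the same, so these values are not directly comparable.

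Apod ran the other way. It fell as Vcam1 rose from mouse to mouse (r = -0.782, adjusted permutation p = 0.00495, rho = -0.845, permutation p = 1.7e-04), and r was -0.689 in control and -0.906 in HLU mice. Many other features did the same, since 11.8% of them had an r of -0.7 or lower with Apod. A lower r with Apod than that of Vcam1 was held by 6.74% of the other features, and than that of Ebf3 by 13.5%. The ratio of Vcam1 to Apod ranged 28.7-fold, from 1.13 in HLU 7 to 32.5 in control 1. It did not separate the groups (log2 difference -0.87, exact permutation p = 0.18). Apod was also negative with Ebf3 (r = -0.676, adjusted permutation p = 0.0405) and Angpt1 (r = -0.634, adjusted permutation p = 0.0499), and both calls were lost without most of the mice left out singly. By Spearman correlation Ebf3 and Apod passed (rho = -0.845, adjusted permutation p = 0.00315), and Angpt1 and Apod did not (rho = -0.536, adjusted permutation p = 0.124). With Cxcl12 the r of Apod was -0.564 and did not pass (adjusted permutation p = 0.0867), but the rho of -0.667 did (adjusted permutation p = 0.0427). With granulocyte and erythroid levels removed, r was -0.498 for Vcam1 and Apod (adjusted permutation p = 0.192) and -0.281 for Ebf3 and Apod (adjusted permutation p = 0.611). For Cxcl12 and Apod it was then -0.213 (adjusted permutation p = 0.660). With the library GC difference removed, Angpt1 and Apod had r = -0.442 (adjusted permutation p = 0.199).

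**Figure D3:**
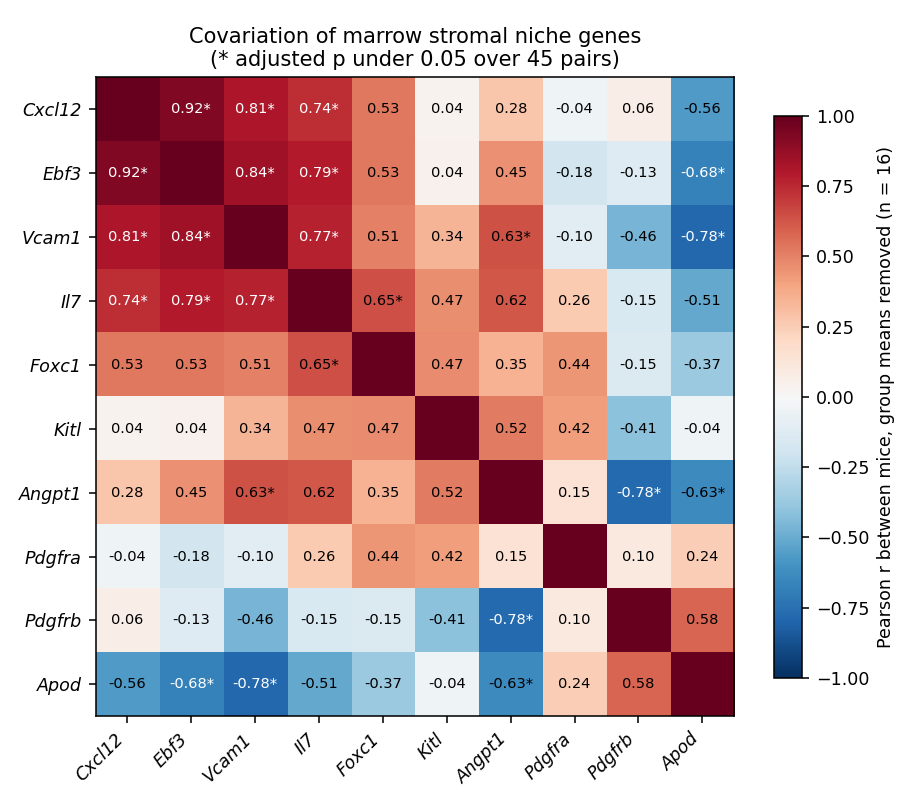
Pearson correlation between mice for each pair of the 10 niche genes after removal of group means (n = 16 mice), red for positive and blue for negative, with a star where the adjusted permutation p is under 0.05. Cxcl12, Ebf3, Vcam1 and Il7 form a red corner with r of 0.74 to 0.92, and Apod is negative with each of the 4.

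Angpt1 and Pdgfrb were opposed (r = -0.781, adjusted permutation p = 0.00611; rho = -0.726, permutation p = 0.0034), and the ratio of Angpt1 to Pdgfrb ran from 0.70 in HLU 6 to 3.10 in control 1. Both genes moved with the library GC difference, Pdgfrb with r = 0.876 (adjusted permutation p = 7e-04) and Angpt1 with r = -0.821 (adjusted permutation p = 0.0016). Kitl did so too (r = -0.687, adjusted permutation p = 0.0078), but the other 7 genes did not pass over the 10 relations. The share of all features that moved as strongly with the GC difference is not given here. These relations are therefore not shown to be particular to the 3 genes. The longest transcripts of Angpt1, Kitl and Pdgfrb hold 39.3%, 39.3% and 54.9% G and C. Il7 (39.0%) and Vcam1 (40.1%) were about as poor in GC as Angpt1 and Kitl but did not pass (r = -0.380 and -0.470). Foxc1 had the highest share of the 10 genes, 55.9%, and its r was -0.479, which did not pass either. With the GC difference removed, r for Angpt1 and Pdgfrb was -0.225 (adjusted permutation p = 0.602). Within the 8 libraries with a GC difference below 0 it was -0.246 (exact permutation p = 0.396), and within the 8 above 0 it was -0.446 (exact permutation p = 0.276). Cxcl12 had no such relation (r = 0.006), and with the GC difference removed Cxcl12 and Vcam1 had r = 0.923 and Cxcl12 and Ebf3 r = 0.938. Within the libraries below and above 0, r for Cxcl12 and Ebf3 was 0.913 (exact permutation p = 0.0104) and 0.979 (exact permutation p = 0.00347).

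**Figure D4:**
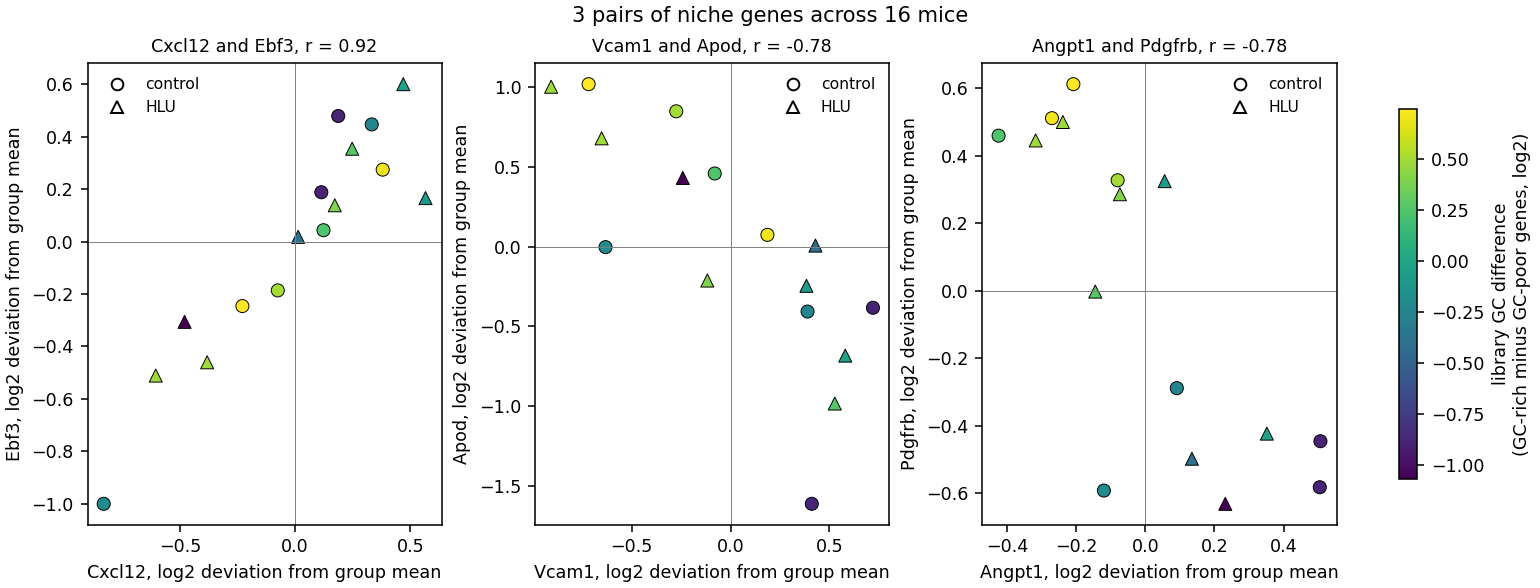
Deviation of each mouse from its group mean in log2(RPKM + 0.1) for 3 pairs of niche genes (circles, control; triangles, HLU; 16 mice), coloured by the library GC difference in log2 units. Cxcl12 and Ebf3 rise together whatever the colour, Vcam1 and Apod are opposed, and in the Angpt1 and Pdgfrb panel the yellow and green points lie to the upper left and most dark points to the lower right.

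The remaining passing pairs were Foxc1 with Il7 (r = 0.648, adjusted permutation p = 0.0430) and Vcam1 with Angpt1 (r = 0.633, adjusted permutation p = 0.0430), each of which passed without some mice and not without others. With the library GC difference removed neither passed, with r = 0.574 for Foxc1 and Il7 and r = 0.490 for Vcam1 and Angpt1 (adjusted permutation p = 0.132 for each). Pdgfra correlated with none of the other 9 genes past the threshold. Kitl also passed in no pair, and its r with Cxcl12 was 0.039 (adjusted permutation p = 0.893). With granulocyte and erythroid levels removed, however, Kitl passed with Angpt1 (r = 0.7999, adjusted permutation p = 0.00405), Vcam1 (r = 0.758, adjusted permutation p = 0.00405), Il7 (r = 0.608, adjusted permutation p = 0.0341) and Pdgfrb (r = -0.640, adjusted permutation p = 0.0435).

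The same within-group correlations were computed between each niche gene and the mean log2 level of 9 lists of markers of other cells, and 22 of the 90 relations passed an adjusted permutation p of 0.05. The share of all features that would pass with these lists is not given here. The relations are therefore not shown to be particular to the niche genes. B-lineage markers (Cd79a, Cd79b, Rag1 and others) rose with Vcam1 (r = 0.872), Il7 (r = 0.741), Cxcl12 (r = 0.712) and Ebf3 (r = 0.671), and fell as Apod rose (r = -0.666). In control mice alone r was 0.425 for Cxcl12, 0.419 for Ebf3 and -0.428 for Apod, and in HLU mice alone it was 0.946, 0.969 and -0.953. The difference between the groups was not tested. Their summed level was 49.6 to 181 RPKM in control and 38.1 to 116 RPKM in HLU mice. Granulocyte markers rose with Vcam1 (r = 0.713) and Ebf3 (r = 0.603) and fell as Apod rose (r = -0.710). Adipocyte markers did the reverse, with r = 0.811 for Apod and -0.732 for Vcam1, over summed levels of 409.9 to 793 RPKM in control and 489 to 845 RPKM in HLU mice. No gene of these lists was at 0 in all mice, and their part in the correlations among niche genes was not tested beyond the values with granulocyte and erythroid levels removed.

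Pdgfrb followed the vascular lists, with r = 0.916 for endothelial markers and 0.886 for pericyte and smooth muscle markers, and Apod followed the latter (r = 0.795). Endothelial, pericyte and adipocyte levels themselves moved with the library GC difference (r = 0.866, 0.731 and 0.625). Pdgfra passed with all 3 bone cell lists, with r = 0.677 for osteoblast, 0.628 for osteocyte and 0.666 for osteoclast markers. Of the bone cell lists Pdgfrb passed with the osteoblast list only (r = 0.705), and it also passed with the adipocyte list (r = 0.754). Angpt1 fell as pericyte and smooth muscle (r = -0.743), adipocyte (r = -0.715) and endothelial markers (r = -0.677) rose. Vcam1 fell as pericyte and smooth muscle markers rose (r = -0.655), and these relations passed too.

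**Figure D5:**
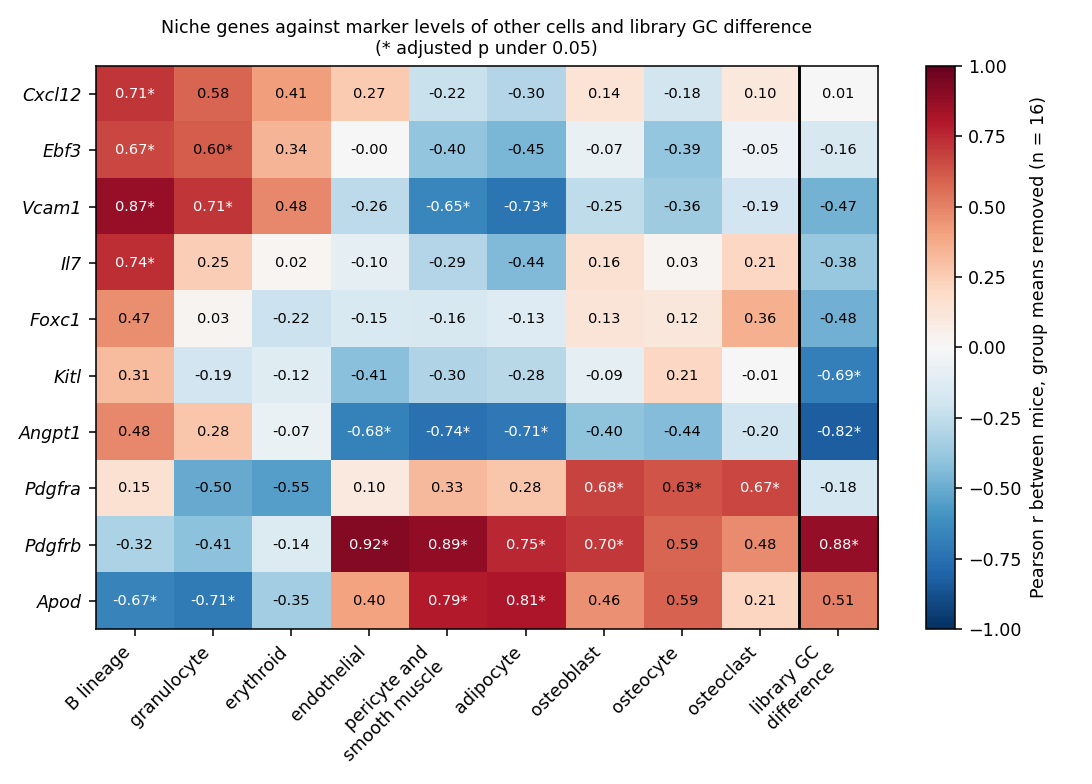
Pearson correlation between mice of each niche gene with the mean log2 level of 9 marker lists and, right of the line, with the library GC difference (group means removed, n = 16 mice), with a star where the adjusted permutation p is under 0.05. Vcam1, Il7, Cxcl12 and Ebf3 are positive with B-lineage markers (0.67 to 0.87) while Apod is negative (-0.67), and Pdgfrb is positive with endothelial markers (0.92) and with the GC difference (0.88).

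Ligands and their receptors were compared in 8 relations, of which 5 passed by Pearson r. Vcam1 rose with the integrin gene Itga4 (r = 0.865, adjusted permutation p = 4.4e-04), Cxcl12 with Cxcr4 (r = 0.666, or 0.353 in control and 0.832 in HLU mice alone; adjusted permutation p = 0.0208) and Il7 with Il7r (r = 0.635, adjusted permutation p = 0.0208). Pdgfrb rose with its ligand Pdgfb (r = 0.917, adjusted permutation p = 8e-05) and Pdgfra with Pdgfa (r = 0.556, adjusted permutation p = 0.0459). The rank correlation of Pdgfra with Pdgfa was weaker (rho = 0.417, unadjusted permutation p = 0.126). An r of at least 0.7 was reached by 13.7% of all other features with Pdgfrb and by 12.6% with Vcam1. With Il7, Cxcl12 and Pdgfra the shares were 1.03%, 1.76% and 2.49%. Il7 with Il7r, Cxcl12 with Cxcr4 and Pdgfra with Pdgfa had an r below 0.7, so these shares do not rank those relations. The share of features that reached the r of each such pair is not given here and cannot be smaller. Pdgfrb also moved with the library GC difference (r = 0.876), whose part in its relation with Pdgfb was not tested. Kitl with Kit (r = 0.420, adjusted permutation p = 0.189) and Angpt1 with Tek (r = -0.011, adjusted permutation p = 0.963) did not pass, nor did Cxcl12 with its second receptor Ackr3, listed as Cxcr7 (r = -0.124). The rank correlation of Kitl with Kit was stronger (rho = 0.619, unadjusted permutation p = 0.0169). CXCR4, the IL-7 receptor and α4 integrin are carried by B-cell precursors and other blood cells, and the part of such cells in these relations was not tested.

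Of the 62 other niche genes, 4 correlated with Cxcl12 past an adjusted permutation p of 0.05, and all 4 were in the list of other niche factors. They were Igfbp4 (r = 0.902), Esm1 (r = 0.879), Chrdl1 (r = 0.837), which encodes a secreted antagonist of bone morphogenetic proteins, and Adipoq (r = 0.818), which encodes adiponectin. Adipoq is also in the adipocyte list, whose other 7 tested genes had r with Cxcl12 between -0.06 for Fabp4 and -0.47 for Pck1, and the list's own r with Cxcl12 was -0.297 (adjusted permutation p = 0.47). Cxcr4 did not pass over these 62 relations (adjusted permutation p = 0.0669). Lepr had r = 0.468 (adjusted permutation p = 0.227). Among all features with a unique symbol and outside the 10 genes, those most like Cxcl12 included Lhfpl2 (r = 0.919), Aknad1 (r = 0.915), Igfbp4 (r = 0.902) and Gm20425 (r = 0.890). These come from the top of a ranking over 16 mice and are given as a description. The niche genes differed in how much of the transcriptome moved with them. An r of at least 0.7 was reached by 13.7% of the other features for Pdgfrb, 12.6% for Vcam1, 7.85% for Apod, 6.95% for Angpt1, 5.54% for Kitl, 2.49% for Pdgfra, 2.35% for Ebf3, 1.05% for Foxc1 and 1.03% for Il7, beside the 1.76% for Cxcl12.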

How the data were processed

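RNA libraries of the 16 bones (1 per mouse, TruSeq v2, 8 per HiSeq lane) were aligned by the authors with TopHat2. The submitters' processing notes name mm9, TopHat2 and DESeq2. The annotation, the counting tool and its use of strand are not given in the sources used here. The deposited values are RPKM computed by the authors. Ebf3, Vcam1, Il7, Angpt1 and Pdgfra share exon sequence with a gene on the opposite strand in GENCODE M21 (GRCm38), so their reads may include that gene's.

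Whole reads were recovered from the RPKM steps for 100% of the 16973 features kept (mean of at least 0.5 RPKM; tolerance 0.001 reads). HLU was compared with control by limma 3.58.1 (R 4.3.3) with an intensity trend on log2(RPKM + 0.1), which understates the change of low genes. DESeq2, which the study used, was not run, since the deposited unit is RPKM. A call needed an unadjusted p under 0.05, or a Benjamini-Hochberg adjusted p under 0.1, and at least 1.2-fold. Single values were tested by two-sided exact permutation over 12870 splits, for which 0.000155 is the smallest p, and correlations by 100000 two-sided permutations of mice within groups. Scripts were tested on simulated data. Alternatives were other pseudocounts and filters, median-of-ratios rescaling, a replicate block, blood marker and GC covariates, limma voom on the recovered reads and leaving out mice. The GC alternatives were chosen after seeing the data. The members and gene lists were chosen with earlier results of these data known. Named genes were the 10 members, list genes past the unadjusted rule, the main receptors and ligands, Lepr, Adipoq, Ebf1 and the 5 features most like Cxcl12, of which 1 is not reported here. Python 3.11.15, numpy 2.4.6 and scipy 1.17.1 were used. Promoter sequences came from the RefSeq table of GRCm38.p6, and no coordinates of the 2 builds were combined.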

Additional observations from a re-analysis of the deposited data

Results flagged for a closer look

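1 value of the 10 niche genes stood far from the rest of its group. Kitl in control 4 was 22.2 RPKM, and the next highest control mouse was at 13.97 RPKM, a gap of 0.703 of the group's whole range and above Dixon's 95% critical value for 8 mice. In all, 20 groups (10 genes in control and in HLU mice) were examined, and chance marks about 1 in 20. Control 4 had the second lowest library GC difference of all 16 mice (-0.90), the lowest was HLU 4 (-1.07), and these were the mice with the most Kitl. Without control 4 the Kitl log2 fold change was 0.05 in place of -0.05.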

How the results depend on the processing

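None of the 10 genes passed an adjusted p of 0.1 under any of the 26 alternatives fitted across all features (Il7 was not tested with a minimum mean of 2 RPKM). The count of niche genes past the unadjusted rule was 0 or 1 throughout, and 1 only for Apod, with granulocyte and erythroid covariates and without control 5 or HLU 3. The directions of the near-zero fold changes were not stable. With granulocyte and erythroid covariates Cxcl12, Ebf3, Foxc1 and Il7 were at -0.015, -0.076, -0.21 and -0.20. Without the 2 smallest libraries Cxcl12, Foxc1 and Il7 were at -0.027, -0.0035 and -0.0020. After rescaling Kitl, Angpt1 and Pdgfra were at 0.039, 0.050 and 0.077. Within libraries with a GC difference below 0 Kitl and Pdgfra were at 0.22 and 0.096, and within those above 0 Cxcl12, Ebf3, Foxc1, Il7 and Angpt1 were at -0.19, -0.030, -0.055, -0.10 and 0.0099. The cause was not tested. Vcam1, Pdgfrb and Apod kept their direction. Leaving out 1 mouse at a time, log2 fold changes ranged from -0.11 to 0.093 for Cxcl12, -0.16 to 0.050 for Kitl, -0.082 to 0.13 for Ebf3, -0.036 to 0.14 for Foxc1, -0.11 to 0.28 for Il7, -0.10 to 0.030 for Angpt1, -0.096 to 0.095 for Pdgfra and 0.40 to 0.78 for Apod.

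Over all features, higher and lower calls were 188 and 808. Higher calls were 391 with no filter, 106 with a minimum mean of 2 RPKM, 381 after rescaling, 606 with granulocyte and erythroid covariates and 106 without the 2 smallest libraries. Lower calls were 395 after rescaling and 1394 with the GC covariate. Without 1 mouse, higher calls ranged from 117 to 365 and lower calls from 474 to 1385, and 0 or 1 feature passed the adjusted rule, 1 without HLU 2 and 1 with no filter. The labels do not say whether the same replicate number in both groups pairs the mice. Same-numbered mice had correlations of -0.17 to 0.51, and 3 of 8 exceeded 0.1. Of the 8 control mice 1, control 4, was most like the HLU mouse of its own number. Such correlations cannot show whether mice were paired by handling. Limma voom on the recovered reads called 183 higher and 915 lower features. The replicate block gave 199 higher and 840 lower features, 0 past the adjusted rule and 0 niche genes.

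Pairs of niche genes past the adjusted threshold numbered 12, and 8 to 14 without 1 mouse or under the other settings. Of the 12, 6 passed without every single mouse in turn, and 4 passed under all 23 alternatives over at least 14 mice (Cxcl12 with Ebf3, Cxcl12 with Vcam1, Ebf3 with Vcam1 and Vcam1 with Il7). After removal of the GC difference 10 pairs passed, 8 of them among the 12, and after removal of granulocyte and erythroid levels 12 passed, 7 of them among the 12. Depth limits Il7 most, with 30 reads in control 6.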

Other observations

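The feature outside the 10 genes most correlated with a niche gene over the 16 mice is given as a description, by a rule set after the values were seen. For Kitl it was Guf1 (r = 0.938), for Angpt1 Tmem170b (r = 0.942), for Pdgfrb Clstn1 (r = 0.9748) and for Pdgfra Fkbp7 (r = 0.933). For Apod it was Mgp, which encodes matrix Gla protein, an inhibitor of calcification (r = 0.952). For Foxc1 it was Cp, which encodes ceruloplasmin (r = 0.954). For Il7 it was Rspo2, a Wnt pathway agonist (r = 0.924). For Vcam1 it was Ets1 (r = 0.970), a transcription factor of lymphoid and endothelial cells, followed by Mrc1 (r = 0.960), a macrophage receptor, and Ikzf3 (r = 0.953), a lymphoid factor.

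Esm1, which encodes the secreted proteoglycan endocan, was among the 5 most correlated features for Vcam1 (r = 0.950), Il7 (r = 0.892) and Ebf3 (r = 0.883), and averaged 32.5 RPKM in control and 29.9 RPKM in HLU mice.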
